A study of Rattus norvegicus with 6 samples.

Results

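Kidneys break down amino acids taken up from the filtrate and the blood, and much of this work is done by the cells of the proximal tubule. The enzymes described here are 48 genes for the breakdown of branched-chain, aromatic, glycine and serine, sulfur, lysine and tryptophan, and glutamine and proline amino acids. They were chosen by name: a probe set belonged to a member if its single annotated gene symbol was that of the member, earlier symbols included, so that Mut was read as Mmut. Of the 48 genes 47 had a probe set, of 14217 genes named by a single symbol on the array. A gene was tested if a probe set of it exceeded the overall median signal on 3 or more of the 6 arrays, and 45 members passed this filter, of 9540 genes tested. Pipox, which oxidises pipecolate and sarcosine, was not analysed here. Tat and Tdo2 were measured but lay below the filter on every array.

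The groups were kidneys of 3 male Dahl S rats, an inbred strain that becomes hypertensive on salt, and of 3 male Lewis rats. All 6 rats ate a diet with 8% NaCl for 8 weeks from an age of 5 weeks. Whole-kidney RNA of each rat was hybridized to its own GeneChip array. Low-salt rats were not analysed here, so inherited differences and differences in the answer to salt cannot be told apart. In whole kidney, fewer cells of a type and less RNA per cell cannot be told apart either.

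In these pathways an aminotransferase or oxidase usually removes nitrogen, and dehydrogenases, hydratases and carboxylases then turn the carbon skeleton into intermediates of the citric acid cycle or ketone bodies. Most branched-chain steps lie in mitochondria, whereas those for tyrosine and for sulfur amino acids lie mostly in the cytosol. Inherited loss of many of these enzymes is known in humans as an organic aciduria or aminoacidopathy.

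Relative to the typical probe set, amino acid breakdown genes were mostly lower in salt-fed Dahl S than in salt-fed Lewis kidneys. Of the 45 members tested, 13 fell, 4 rose and 28 did not pass the threshold, an adjusted p of 0.05 from limma over all 15797 probe sets tested. The falls made up 28.9% of the members, where 7.62% of all genes tested fell. The rises made up 8.89%, where 9.04% of all genes rose. Among the 942 genes at least as bright as the median member, 13.2% fell and 12.3% rose. The members' median difference was -0.13 on the log2 scale, against 0.00 for all genes tested, and 37 of 45 members lay below 0 (82.2%, against 49.0% of all genes). Strain ranges did not overlap in 26 members, 22 of them lower in Dahl S (16.7% of all genes were lower with no overlap) and 4 higher (18.4% of all genes). Without any 1 rat the number of members that fell ran from 9 (without Dahl S rat 3) to 18 (without Lewis rat 1), and the number that rose was 2 without Dahl S rat 2 or 3. The calls over the whole array moved as well: without Dahl S rat 1, 2 or 3, 700, 720 and 658 probe sets rose and 759, 787 and 715 fell, against 1343 and 1224 with all rats.

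**Figure D1:**
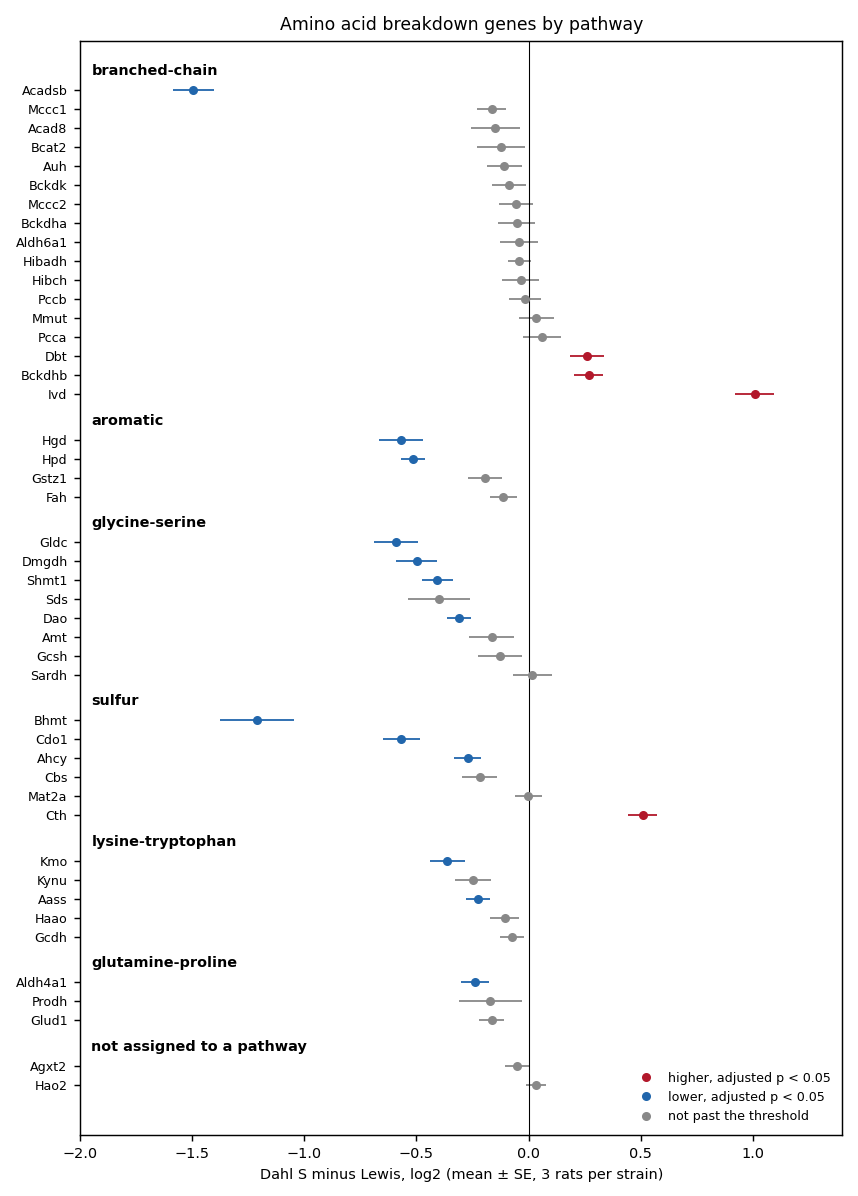
Dahl S minus Lewis difference of the 45 tested members on the log2 scale (points, with SE, 3 rats per strain), grouped by pathway and coloured by whether the adjusted p passed 0.05. Ivd, Cth, Bckdhb and Dbt lie to the right, Acadsb (-1.50) and Bhmt (-1.21) farthest to the left. In the signals as deposited, which were not scaled, only 9 of the 45 lie below 0, and 38 lie below the median of all probe sets tested (0.41).

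The deposited signals were not on a common level, and the direction of small differences depends on how the arrays are scaled. In the signals as deposited the median difference was 0.41 over all probe sets tested and 0.22 over the members, and 9 of 45 members lay below 0. On that scale 1 member rose (Ivd) and 1 fell (Acadsb), and 5 of the members that fell after normalization lay above 0, Shmt1 (0.01), Ahcy (0.10), Kmo (0.05), Aass (0.08) and Aldh4a1 (0.12). Relative to the shift of all probe sets, 38 of 45 members still lay lower in Dahl S, as did 38 after scaling to a common median, where 2 members rose and 15 fell, Glud1 and Hao2 being the falls gained and Bckdhb and Dbt the rises lost. All differences below are after quantile normalization, which removes a shift shared by most genes, and signals are given as the normalized signal of a probe set in arbitrary units. All adjusted p-values are from limma and refer to all probe sets tested.

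**Figure D2:**
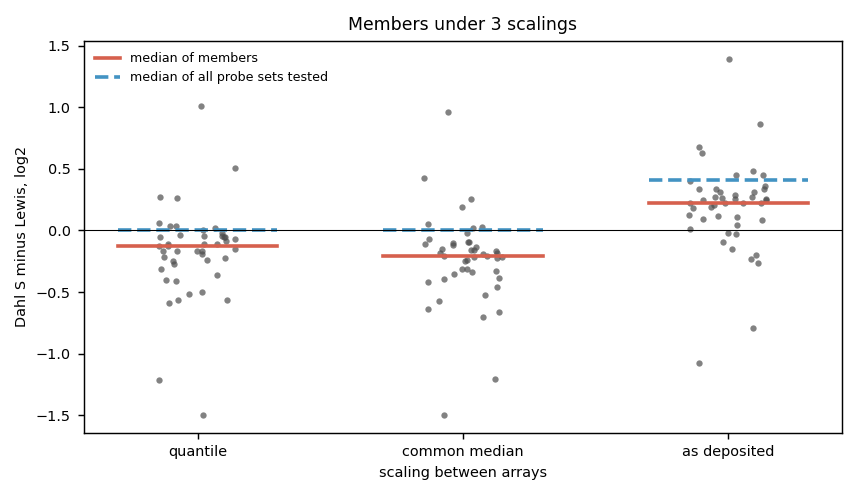
Dahl S minus Lewis difference of the 45 tested members (points, log2) under quantile normalization, scaling to a common median and no scaling, with the median of the members (solid line) and of all probe sets tested (dashed line). The members' median lies below that of all probe sets in each, at -0.13 against 0.00, -0.21 against 0.00 and 0.22 against 0.41.

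The promoters of 4 members are shown because these genes had the largest falls of the branched-chain and sulfur groups (Acadsb, Bhmt), the smallest adjusted p of the aromatic group (Hpd) and the largest rise of all members (Ivd). Each sequence is RefSeq's window in the GRCr8 assembly, from 250 bases before the start of the gene to 50 bases after it, written 5′ to 3′ on the gene's own strand. GRCr8 is the genome of a BN rat, and neither strain's own sequence was read. Acadsb lies at chr1:195618966-195619265 (plus strand), Bhmt at chr2:26614380-26614679 (minus strand), Hpd at chr12:39041996-39042295 (plus strand) and Ivd at chr3:126305334-126305633 (plus strand). Capitals mark matches on either strand to the TATA box (TATAAA), the CCAAT box (CCAAT), the Sp1 box (GGGCGG), the HNF4 motifs CAAAGTCCA and CAAAGGTCA and the HNF1 half-site GTTAAT. Neighbouring matches may overlap, as the Sp1 boxes at the start of the Acadsb window do.
Acadsb: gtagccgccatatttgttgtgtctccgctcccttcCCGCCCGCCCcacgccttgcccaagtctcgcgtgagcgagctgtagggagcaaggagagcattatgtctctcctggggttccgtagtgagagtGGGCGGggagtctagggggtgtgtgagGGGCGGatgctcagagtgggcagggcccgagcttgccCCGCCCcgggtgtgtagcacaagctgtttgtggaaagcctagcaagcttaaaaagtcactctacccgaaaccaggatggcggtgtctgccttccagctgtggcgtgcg
Bhmt: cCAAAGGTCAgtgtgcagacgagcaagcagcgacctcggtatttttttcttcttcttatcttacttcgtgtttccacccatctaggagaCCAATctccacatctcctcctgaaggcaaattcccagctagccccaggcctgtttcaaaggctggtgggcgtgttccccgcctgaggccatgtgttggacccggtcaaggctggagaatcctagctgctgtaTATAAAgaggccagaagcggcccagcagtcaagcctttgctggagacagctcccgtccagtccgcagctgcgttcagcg
Hpd: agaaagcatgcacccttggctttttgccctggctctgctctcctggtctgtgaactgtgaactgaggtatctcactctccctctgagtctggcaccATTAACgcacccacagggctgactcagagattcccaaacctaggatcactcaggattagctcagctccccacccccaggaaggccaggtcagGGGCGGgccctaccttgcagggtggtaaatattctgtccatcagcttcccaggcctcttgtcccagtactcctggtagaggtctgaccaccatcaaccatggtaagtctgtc
Ivd: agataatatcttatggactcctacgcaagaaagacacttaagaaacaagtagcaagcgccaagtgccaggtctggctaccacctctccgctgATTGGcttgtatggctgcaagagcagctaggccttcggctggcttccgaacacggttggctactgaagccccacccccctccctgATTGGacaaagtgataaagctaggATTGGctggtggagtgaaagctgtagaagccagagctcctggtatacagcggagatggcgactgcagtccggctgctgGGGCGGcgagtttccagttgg

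Among 42 members with a promoter in this table, 26 (61.9%) held a CCAAT box and 26 (61.9%) an Sp1 box, against 37.5% and 33.1% of all 33469 promoters. Members were counted by gene, and the whole table by promoter, with genes not tested on the arrays included. The share among tested genes was not computed. The TATA box was present in 7 members (16.7%), among them Bhmt, against 14.2% of all promoters. The HNF4 motif CAAAGTCCA stood in 3 members, Kmo, Agxt2 and Pipox (7.14%, against 0.391% of all promoters), and CAAAGGTCA in Bhmt alone of the members (0.424% of all). The HNF1 half-site was found in Hpd and Sardh (4.76% of members, against 7.45% of all promoters). Of the members that fell 11 had a promoter in the table, of which 6 held a CCAAT box and 6 an Sp1 box. All 4 that rose held both a CCAAT box and an Sp1 box. A match describes the letters in the window and was not tested as a binding site.

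In the branched-chain pathway 17 of 17 members were tested. Of these 3 rose in Dahl S, Ivd, Bckdhb and Dbt (17.6%, against 9.04% of all genes tested). Only Acadsb fell (5.88%, against 7.62% of all genes), so the share of falls was not above that of all genes. The other 13 did not pass, and the median was -0.04. That median was -0.075 without Lewis rat 1, -0.0013 without Lewis rat 2, -0.070 without Lewis rat 3 and -0.098 when arrays shared a common median. The pathway starts with Bcat2, the mitochondrial aminotransferase that takes the amino group from leucine, isoleucine and valine. Its normalized signal was 399, 403 and 429.9 in Dahl S rats 1, 2 and 3, against 397, 532 and 427 in Lewis rats 1, 2 and 3. The strains overlapped, and the difference did not pass (-0.12, SE 0.11, adjusted p = 0.48).

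The keto acids then meet the branched-chain keto acid dehydrogenase, the committed and irreversible step. Its E1 component has an alpha subunit (Bckdha) and a beta subunit (Bckdhb), its E2 core is Dbt, and the kinase Bckdk switches the complex off. Bckdhb gave 1979.8, 2073 and 2193 in Dahl S rats 1, 2 and 3, against 1686, 1710.1 and 1780.4 in Lewis rats 1, 2 and 3, and every Dahl S rat lay above every Lewis rat. It was 1.2-fold higher in Dahl S (log2 change 0.27 with SE 0.06, adjusted p = 0.014). Dbt gave 822, 863 and 846 in Dahl S rats 1, 2 and 3, against 749, 702 and 655 in Lewis rats 1, 2 and 3, again without overlap, and was 1.2-fold higher (log2 change 0.26 with SE 0.08, adjusted p = 0.038). Both rises were small and their calls depended on single arrays. Bckdhb did not pass without Dahl S rat 2 (0.27, adjusted p = 0.058) or 3 (0.23, adjusted p = 0.11) or when arrays shared a common median (0.19, adjusted p = 0.19). Dbt still passed without Lewis rat 1. Without Lewis rat 2 or 3 or Dahl S rat 1, 2 or 3 it gave 0.26, 0.21, 0.28, 0.25 and 0.26 (adjusted p 0.081 to 0.15). Dbt also missed the threshold with a common median (0.25, adjusted p = 0.076), with no filter on dim probe sets (adjusted p = 0.057), with a replicate block (adjusted p = 0.061) and without a variance trend (adjusted p = 0.078), and Bckdhb without a variance trend (adjusted p = 0.065).

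The alpha subunit and the kinase overlapped between strains. Bckdha gave 848, 770.0 and 796 in Dahl S rats 1, 2 and 3, against 777, 917 and 816 in Lewis rats 1, 2 and 3 (difference -0.05, SE 0.08, adjusted p = 0.72), and its dimmer second probe set -0.22 (SE 0.18). Bckdk gave 899, 903 and 954 in Dahl S rats 1, 2 and 3, against 981, 1041 and 908 in Lewis rats 1, 2 and 3 (difference -0.09, SE 0.08, adjusted p = 0.49).

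The pathway then divides by amino acid, and its largest differences, in opposite directions, were in the acyl-CoA dehydrogenases that act next. Ivd, isovaleryl-CoA dehydrogenase of the leucine branch, gave 1883, 1949.7 and 1984 in Dahl S rats 1, 2 and 3, against 828, 1036 and 1016 in Lewis rats 1, 2 and 3. Every Dahl S rat had a higher signal than every Lewis rat, and Ivd was 2.01-fold higher in Dahl S (log2 change 1.01 with SE 0.09, adjusted p = 8e-06). Acadsb, the short and branched-chain dehydrogenase of the isoleucine branch, gave 288, 279.9 and 264 in Dahl S rats 1, 2 and 3, against 737, 812 and 887 in Lewis rats 1, 2 and 3. It was 2.82-fold lower in Dahl S (log2 change -1.50 with SE 0.09, adjusted p = 4.3e-07), the largest difference among the members tested. Acad8, the isobutyryl-CoA dehydrogenase of the valine branch, averaged 277 ± 5.92 in Dahl S and 311 ± 46.7 in Lewis (SD, n = 3 each) and did not pass (-0.15, SE 0.11). Without any 1 rat Ivd ran from 0.90 to 1.06 and Acadsb from -1.57 to -1.42, and both passed each time. Each of these genes is read by 1 probe set, and strain differences in the probed sequence, which were not masked, are a cause that was not tested.

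Further down each branch no member passed. In the leucine branch the methylcrotonyl-CoA carboxylase subunits Mccc1 and Mccc2 differed by -0.16 and -0.06, and the hydratase gene Auh by -0.11. Mccc1 was lower in each Dahl S rat than in each Lewis rat but missed the threshold (SE 0.07, adjusted p = 0.11). In the valine branch the hydrolase gene Hibch gave -0.04, the dehydrogenase gene Hibadh -0.04 and Aldh6a1, methylmalonate semialdehyde dehydrogenase, -0.04. Aldh6a1 passed as lower without Lewis rat 1 (-0.15, adjusted p = 0.045), and its other probe set gave -0.23 (adjusted p = 0.15). Propionyl-CoA, which valine and isoleucine share, is carboxylated by the products of Pcca and Pccb (0.06 and -0.02) and ends as succinyl-CoA through Mmut (0.04). Over the 13 members of the pathway that did not pass, differences ran from -0.16 to 0.06 with SE between 0.05 and 0.11.

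**Figure D3:**
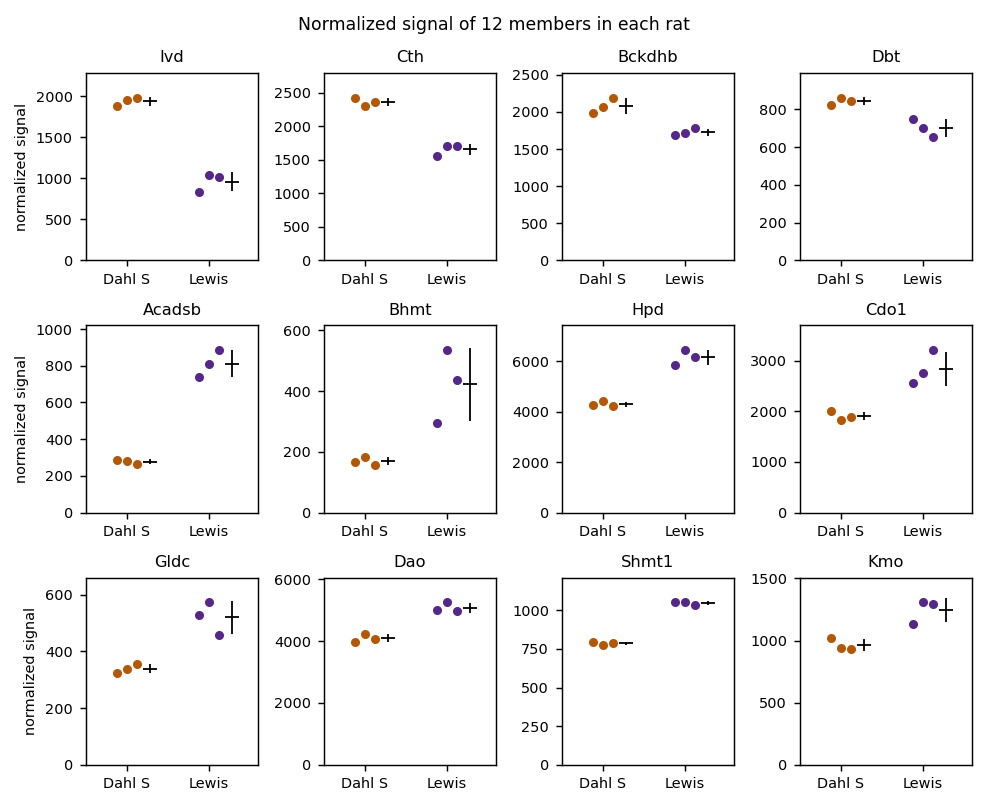
Normalized signal (arbitrary units, axes from 0) of 12 members in each of 3 Dahl S and 3 Lewis rats, with the mean and SD of each strain beside the points. Ivd, Cth, Bckdhb and Dbt are higher in Dahl S and the other 8 lower. All 12 were chosen among members that passed the threshold, and the strains do not overlap in any panel. Of all 45 members tested, 26 had no overlap, 22 lower in Dahl S and 4 higher (16.7% and 18.4% of all genes).

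Genes for the middle steps of tyrosine breakdown were lower in Dahl S. Of 4 tested aromatic members 2 fell, Hpd and Hgd (50%, against 7.62% of all genes tested). The other 2 did not pass, and the median was -0.35. By limma 0 rose in the aromatic, the glycine and serine, the lysine and tryptophan and the glutamine and proline groups, and also 0 at an unadjusted p under 0.05. Tat, the aminotransferase that opens the pathway in liver, was dim in both strains, at 0.966, 1.6 and 2.43 in Dahl S rats and 0.982, 1.61 and 0.599 in Lewis rats, and was not tested. Hpd, hydroxyphenylpyruvate dioxygenase, gave 4266, 4411 and 4234 in Dahl S rats 1, 2 and 3, against 5843, 6460.0 and 6171 in Lewis rats 1, 2 and 3. It was 1.43-fold lower in Dahl S with no overlap (log2 change -0.51 with SE 0.05, adjusted p = 4e-05). Hgd, homogentisate dioxygenase, which acts next and whose loss causes alkaptonuria in humans, gave 1384, 1693 and 1544 in Dahl S rats 1, 2 and 3, against 1977, 2553 and 2360.1 in Lewis rats 1, 2 and 3. It was 1.48-fold lower (log2 change -0.57 with SE 0.10, adjusted p = 0.0018).

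The last steps did not pass. Gstz1, maleylacetoacetate isomerase, differed by -0.19 (SE 0.07, adjusted p = 0.099), and passed without Lewis rat 1 (-0.23, adjusted p = 0.040). Fah, fumarylacetoacetate hydrolase, the enzyme missing in tyrosinaemia of humans, gave 2429, 2409 and 2411 in Dahl S rats 1, 2 and 3, against 2491, 2600.4 and 2755 in Lewis rats 1, 2 and 3 (difference -0.11, SE 0.06, adjusted p = 0.23). All 4 tested members of the pathway were lower in each Dahl S rat than in each Lewis rat, as were 16.7% of all genes. The calls of Hpd and Hgd held without any 1 rat (-0.55 to -0.48 and -0.66 to -0.48).

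In the glycine and serine group 4 of 8 members fell in Dahl S, Gldc, Dmgdh, Shmt1 and Dao (50%, against 7.62% of all genes). The other 4 did not pass, and the median was -0.36. Glycine is split in mitochondria by the glycine cleavage system, whose decarboxylase is Gldc. Gldc gave 323, 337 and 356 in Dahl S rats 1, 2 and 3, against 527, 574 and 459 in Lewis rats 1, 2 and 3, and it was 1.51-fold lower with no overlap (log2 change -0.59 with SE 0.10, adjusted p = 0.0013). Its other 2 probe sets lay below the filter. The partner proteins of the system did not pass: Amt, the aminomethyltransferase, averaged 598 ± 17.8 in Dahl S and 676 ± 92 in Lewis (SD, n = 3 each), a difference of -0.16 (SE 0.10, adjusted p = 0.3), and Gcsh, the lipoyl carrier, 2672 ± 307 in Dahl S and 2921 ± 373 in Lewis (SD, n = 3 each), a difference of -0.13 (SE 0.10, adjusted p = 0.42). Amt passed without Lewis rat 1 (-0.28, adjusted p = 0.019).

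Shmt1, the cytosolic serine hydroxymethyltransferase that interconverts serine and glycine, gave 794, 774 and 788 in Dahl S rats 1, 2 and 3, against 1054, 1053 and 1033 in Lewis rats 1, 2 and 3. The rats of a strain were close to each other, and Shmt1 was 1.33-fold lower in Dahl S (log2 change -0.41 with SE 0.07, adjusted p = 0.0015). Dao, the peroxisomal D-amino acid oxidase of proximal tubule cells, gave 3984, 4234 and 4069 in Dahl S rats 1, 2 and 3, against 5024, 5267 and 4962 in Lewis rats 1, 2 and 3, with no overlap, and fell by 0.31 (SE 0.05, adjusted p = 0.0015) on the log2 scale. Sds, serine dehydratase, a mainly hepatic enzyme, was dim and averaged 75.2 ± 14.4 in Dahl S and 103 ± 2.76 in Lewis (SD, n = 3 each), with no overlap between strains but past no threshold (difference -0.40, SE 0.14, adjusted p = 0.068).

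Dimethylglycine and sarcosine, the products of choline breakdown, are demethylated in mitochondria by Dmgdh and Sardh. Dmgdh gave 840.3, 891 and 866 in Dahl S rats 1, 2 and 3, against 1397, 1079 and 1233 in Lewis rats 1, 2 and 3 and was 1.41-fold lower in Dahl S (log2 change -0.50 with SE 0.09, adjusted p = 0.0026). For Sardh the probe sets disagreed. The brighter gave 632, 608 and 639.6 in Dahl S rats and 556, 673 and 635 in Lewis rats and a difference of 0.02 (adjusted p = 0.93), and the dimmer gave -0.43 (SE 0.12, adjusted p = 0.025). The 4 falls of this group passed without any 1 rat.

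The sulfur group held changes in both directions. Of 6 members 3 fell, Bhmt, Cdo1 and Ahcy (50%, against 7.62% of all genes tested). Only Cth rose (16.7%, against 9.04% of all genes). The other 2 did not pass, and the median was -0.24. Methionine is activated by Mat2a, the methionine adenosyltransferase of tissues other than liver. Mat2a averaged 3879 ± 145 in Dahl S and 3885 ± 264 in Lewis (SD, n = 3 each) and overlapped between strains (difference 0.00, SE 0.06). Its dimmer tested probe set gave -0.18 (SE 0.12). Ahcy, which splits S-adenosylhomocysteine into homocysteine and adenosine, gave 1457, 1549 and 1521 in Dahl S rats 1, 2 and 3, against 1791, 1854 and 1829.6 in Lewis rats 1, 2 and 3 and was 1.21-fold lower (log2 change -0.27 with SE 0.06, adjusted p = 0.01). That call was lost without Dahl S rat 1 (-0.25, adjusted p = 0.061) or 3 (-0.28, adjusted p = 0.054), and without a variance trend (adjusted p = 0.051).

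Homocysteine is returned to methionine by Bhmt with betaine or passed to cysteine by Cbs and Cth. Bhmt gave 167, 183 and 156 in Dahl S rats 1, 2 and 3, against 296, 536 and 435 in Lewis rats 1, 2 and 3. Lewis rats spread widely, yet the lowest Lewis signal lay above the highest Dahl S signal, and Bhmt was 2.32-fold lower in Dahl S (log2 change -1.21 with SE 0.17, adjusted p = 0.00034). The difference ran from -1.45 without Lewis rat 1 to -1.02 without Lewis rat 2, and passed each time. Cbs, cystathionine beta-synthase, gave 853, 764 and 796 in Dahl S rats 1, 2 and 3, against 970.1, 962 and 882 in Lewis rats 1, 2 and 3. It was lower in each Dahl S rat than in each Lewis rat but missed the threshold (-0.22, SE 0.08, adjusted p = 0.077), and passed without Lewis rat 3 (-0.26, adjusted p = 0.048). Cth, cystathionine gamma-lyase, which completes cysteine synthesis, gave 2424, 2296 and 2361 in Dahl S rats 1, 2 and 3, against 1557, 1706 and 1702 in Lewis rats 1, 2 and 3. It was 1.42-fold higher in Dahl S (log2 change 0.51 with SE 0.06, adjusted p = 0.00017), and passed without any 1 rat (0.46 to 0.53).

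Cysteine is oxidised by Cdo1, cysteine dioxygenase, on the way to taurine and sulfate. Cdo1 gave 1998, 1836 and 1880.4 in Dahl S rats 1, 2 and 3, against 2551, 2755 and 3216 in Lewis rats 1, 2 and 3. Dahl S rats lay well below Lewis rats, by 1.48-fold (log2 change -0.57 with SE 0.08, adjusted p = 0.00049).

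In the lysine and tryptophan group 2 of 5 tested members fell, Kmo and Aass (40%, against 7.62% of all genes tested). The other 3 did not pass, and the median was -0.23. Each of the 5 was lower in every Dahl S rat than in every Lewis rat, as were 16.7% of all genes tested. Tdo2, the hepatic tryptophan dioxygenase, was near 0, at 8.05, 10.3 and 5.14 in Dahl S rats and 0.749, 1.17 and 0.949 in Lewis rats, and was not tested. Kmo, kynurenine monooxygenase of the outer mitochondrial membrane, gave 1021, 939 and 933 in Dahl S rats 1, 2 and 3, against 1137, 1310.1 and 1292 in Lewis rats 1, 2 and 3 and was 1.29-fold lower in Dahl S (log2 change -0.36 with SE 0.08, adjusted p = 0.0075). Kynu, kynureninase, averaged 603 ± 29.6 in Dahl S and 719 ± 42.6 in Lewis (SD, n = 3 each), a difference of -0.25 (SE 0.08, adjusted p = 0.056), and passed without Lewis rat 1 (-0.28, adjusted p = 0.029). Haao, which forms the precursor of quinolinate, differed by -0.11 (SE 0.06, adjusted p = 0.3).

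Lysine breakdown starts with Aass, the double-headed aminoadipate semialdehyde synthase. Aass gave 2669, 2783 and 2751 in Dahl S rats 1, 2 and 3, against 3216, 3242 and 3148 in Lewis rats 1, 2 and 3 and was 1.17-fold lower (log2 change -0.23 with SE 0.05, adjusted p = 0.013). Gcdh, glutaryl-CoA dehydrogenase, where lysine and tryptophan carbon meet, averaged 3668 ± 87 in Dahl S and 3858 ± 110.0 in Lewis (SD, n = 3 each) and did not pass (difference -0.07, SE 0.05, adjusted p = 0.4), as did its other 2 probe sets (-0.18 and -0.19). The call of Aass was lost without Dahl S rat 1 (-0.22, adjusted p = 0.065) or 3 (-0.23, adjusted p = 0.066), and that of Kmo without Dahl S rat 3 (-0.34, adjusted p = 0.050). Aass also missed the threshold without a variance trend (adjusted p = 0.089).

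In the glutamine and proline group 1 of 3 members fell, Aldh4a1 (33.3%, against 7.62% of all genes tested). The other 2 did not pass, and the median was -0.17. Glud1, glutamate dehydrogenase, feeds the ammonia production of the proximal tubule. It gave 3867, 3839.8 and 3966 in Dahl S rats 1, 2 and 3, against 4564, 4113 and 4420.5 in Lewis rats 1, 2 and 3, lower in each Dahl S rat than in each Lewis rat, but missed the threshold (difference -0.16, SE 0.06, adjusted p = 0.066). Its other probe set gave -0.14 (SE 0.05). Glud1 passed without Lewis rat 2 (-0.21, adjusted p = 0.031) and, when arrays shared a common median, at -0.31 (adjusted p = 0.024).

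Proline is oxidised by Prodh and then by Aldh4a1 to glutamate. Prodh gave 291, 244 and 269 in Dahl S rats 1, 2 and 3, against 233, 329 and 363 in Lewis rats 1, 2 and 3, with overlapping strains (difference -0.17, SE 0.14, adjusted p = 0.46). Without Lewis rat 1, the dimmest array, it gave -0.36 (adjusted p = 0.028), more than 1.5 times the value with all rats. Aldh4a1 gave 1841, 1823 and 1737 in Dahl S rats 1, 2 and 3, against 2197, 2137 and 2048 in Lewis rats 1, 2 and 3 and was 1.18-fold lower (log2 change -0.24 with SE 0.06, adjusted p = 0.02). That call was lost without Dahl S rat 1, 2 or 3 (-0.26, -0.25 and -0.21, adjusted p = 0.058, 0.068 and 0.13), and without a variance trend (adjusted p = 0.084).

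The remaining members, Agxt2 and Hao2, belong to none of these groups. Agxt2, a mitochondrial aminotransferase of glyoxylate and of methylated arginines, averaged 4067 ± 162 in Dahl S and 4213 ± 98.2 in Lewis (SD, n = 3 each), a difference of -0.05 (SE 0.05, adjusted p = 0.56). Hao2, the peroxisomal hydroxyacid oxidase abundant in rat kidney, averaged 10114 ± 384 in Dahl S and 9871 ± 91.3 in Lewis (SD, n = 3 each), a difference of 0.03 (SE 0.04, adjusted p = 0.65). Neither passed, and the strains overlapped in both. After quantile normalization, which gives equal ranks equal values, Hao2 had the same signal, 9819, in Dahl S rat 1 and Lewis rats 1 and 2. In Dahl S rat 3 and Lewis rat 3 it was 9977. When arrays shared a common median, Hao2 changed sign and passed as lower in Dahl S (-0.33, SE 0.09, adjusted p = 0.024).

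Other enzymes of the same pathways were read the same way from a second list of 62 genes. Of these 52 had a probe set and 44 were tested. Of the 44, 18 fell (40.9%, against 7.62% of all genes tested), 0 rose (against 9.04%) and 26 did not pass. Their median was -0.19 (-0.27 when arrays shared a common median). In the signals as deposited it was 0.16, against 0.41 over all probe sets tested. By limma at an unadjusted p under 0.05, 3 genes of the list were higher, Ppm1k, Aldh18a1 and Ftcd. In sulfur metabolism 5 of 11 tested genes fell. They include Mpst, mercaptopyruvate sulfurtransferase, which fell by 0.60 (SE 0.08, adjusted p = 0.00026) on the log2 scale, and Csad, which decarboxylates cysteine sulfinate towards taurine and fell by 0.50 (SE 0.08, adjusted p = 0.0013). Bhmt2, a methyltransferase related to Bhmt, fell by 0.29 (SE 0.05, adjusted p = 0.0016). Cross-hybridization between Bhmt and Bhmt2 was not tested. Around glycine and serine 5 of 7 fell. Shmt2, the mitochondrial serine hydroxymethyltransferase, fell by 0.43 (SE 0.07, adjusted p = 0.0019), Prodh2, hydroxyproline dehydrogenase, differed by -0.39 (SE 0.07, adjusted p = 0.0036) and Gnmt, glycine methyltransferase, by -0.41 (SE 0.09, adjusted p = 0.006).

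Of 10 lysine and tryptophan genes in that list 4 fell, where 7.62% of all genes tested fell. Qprt, which takes quinolinate into NAD synthesis, fell by 0.52 (SE 0.07, adjusted p = 0.00019). Its dimmer probe set gave -0.30 (adjusted p = 0.17). Etfdh, which passes electrons from Gcdh, Ivd, Acadsb, Dmgdh and Sardh to ubiquinone, fell by 0.47 (SE 0.09, adjusted p = 0.0027). Acmsd, which diverts carbon away from quinolinate, fell by 0.37 (SE 0.07, adjusted p = 0.0038). In the branched-chain list 1 of 8 fell: Abat, a transaminase of beta-amino acids, which fell by 0.37 (SE 0.08, adjusted p = 0.011). Without Dahl S rat 2 Abat did not pass (-0.34, adjusted p = 0.060). Of 4 aromatic genes 1 fell, the decarboxylase gene Ddc, with a difference of -0.37 (SE 0.07, adjusted p = 0.0035). Of 3 glutamine and proline genes 2 fell, Glul, glutamine synthetase, with a difference of -0.19 (SE 0.05, adjusted p = 0.037), and Oat, ornithine aminotransferase, with -0.20 (SE 0.06, adjusted p = 0.038). The other 2 tested probe sets of Glul gave -0.27 and -0.32 (adjusted p = 0.0085 and 0.0021).

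The calls of Glul and Oat were lost without several single rats. Glul gave -0.13, -0.20, -0.20 and -0.18 without Lewis rat 2 and Dahl S rat 1, 2 or 3 (adjusted p 0.077 to 0.15). Oat gave -0.18, -0.19, -0.23, -0.14 and -0.22 without Lewis rat 2 or 3 and Dahl S rat 1, 2 or 3 (adjusted p 0.055 to 0.18). The number of genes of this list that fell was 11 without Dahl S rat 2, and 0 in the signals as deposited.

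Marker genes of kidney cells moved between the strains as well, where 7.62% of all genes tested fell and 9.04% rose. Of 16 proximal tubule markers 7 were lower in Dahl S, 0 higher and 9 not past the threshold in limma (1 higher at an unadjusted p under 0.05). Their median was -0.17, against -0.35 when arrays shared a common median. In the signals as deposited it was 0.09, against 0.41 over all probe sets tested. Their summed normalized signal was 57497 to 58733 in Dahl S rats and 63392 to 66368 in Lewis rats. Among them the transporter genes Slc5a12, Slc13a3 and Slc22a6 had the largest falls, with differences of -0.84, -0.80 and -0.69. The phosphate transporter gene Slc34a1 (-0.06) and Lrp2, megalin (-0.07), did not pass. Cubn (0.13), Slc3a1 (0.09) and Slc22a7 (0.26) were higher in each Dahl S rat than in each Lewis rat but did not pass either. Injury markers summed to 14066 to 14271 in Dahl S and 7224 to 8038 in Lewis, and 5 of 7 rose. Spp1 made up most of this sum, with a mean of 8387 in Dahl S and 4572 in Lewis. Krt8 (0.12) did not pass. Krt18 was lower in each Dahl S rat than in each Lewis rat but did not pass either (-0.24, adjusted p = 0.086). Macrophage and leukocyte markers summed to 2513 to 2570.1 in Dahl S and 1594 to 1731 in Lewis, and 8 of 8 tested rose. Fibroblast and smooth muscle markers summed to 5943 to 6070.5 in Dahl S and 3405 to 4210.5 in Lewis, with 4 of 7 higher. With a common median the medians of these 3 lists were 0.68, 0.61 and 0.62. In the signals as deposited they were 1.12, 1.01 and 1.05, where the median over all probe sets tested was 0.41. Of other cell types, 2 of 8 thick limb and distal markers, 2 of 5 endothelial, 2 of 4 podocyte and 1 of 2 adipose markers fell, 3 of 3 erythrocyte markers rose, and the 3 adrenal cortex markers measured lay below the filter. The part of these cell markers in the members' differences was not tested. Many members are also liver enzymes: of 6 liver markers 5, Alb, Apoa2, Ttr, Fgb and Serpina1, lay below the filter, and the list summed to 178 to 201 in Dahl S and 178 to 251 in Lewis.

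**Figure D4:**
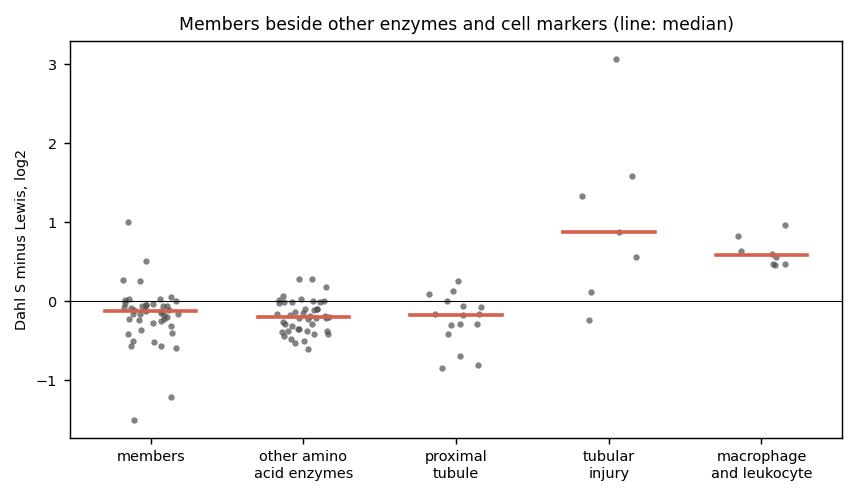
Dahl S minus Lewis difference (log2) of each tested gene among the members, the other amino acid enzymes and markers of proximal tubule, tubular injury, and macrophages and leukocytes (points, 3 rats per strain, red line at the median of each list). The medians are -0.13, -0.19 and -0.17 for members, other enzymes and proximal tubule markers, and 0.88 and 0.59 for injury and leukocyte markers. Without scaling the first 3 become 0.22, 0.16 and 0.09, where the median of all probe sets tested is 0.41.

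Viewed rat by rat, the members' deviations from their own mean over the 6 arrays had medians of -0.05, -0.09 and -0.05 in Dahl S rats 1, 2 and 3, against 0.02, 0.12 and 0.08 in Lewis rats 1, 2 and 3. In the glycine and serine group these were -0.11, -0.20 and -0.18 in Dahl S rats, against 0.22, 0.19 and 0.15 in Lewis rats. In the branched-chain group they were -0.02, -0.03 and -0.01 in Dahl S rats, against -0.07, 0.07 and 0.05 in Lewis rats. Lewis rat 1 lay below the other Lewis rats in the branched-chain genes and above them in the glycine and serine genes. Its array was the dimmest (2% trimmed mean signal 118, the other arrays 174 to 249), and the part of array brightness in these deviations was not tested.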

How the data were processed

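Arrays from 3 Dahl S and 3 Lewis kidneys were compared, 1 per rat. The deposited table lists the intensity of 31099 probe sets on a linear scale, computed by the authors with GeneChip Operating Software 1.4, per the labels; the scaling target is not given in the sources used here. Control probe sets (57) were left out, and log2(signal + 16) was quantile normalized. The strains were compared in R 4.3.3 with limma 3.58.1 (lmFit, eBayes with a variance trend, two-sided, Benjamini-Hochberg adjustment over the 15797 probe sets that exceeded the overall median on 3 or more arrays). The brightest tested probe set stood for a gene. The fold change is on the log2(signal + 16) scale and understates that of dim genes, and normalized signals are the antilog minus 16. Symbols came from the platform annotation, updated through gene identifiers to RefSeq (20760 of 20826 singly named probe sets matched). Signals of every array are given for up to 6 members that fell and 6 that rose by adjusted p, for a fixed set of entry enzymes, and for a few further members chosen after their values were seen. Members, pathways, the list of other enzymes, markers and tests were chosen with earlier results of these data known, and the promoter motifs and the brightness limit after the differences were seen. Precision is limited by having 6 arrays: an exact permutation of 3 against 3 gives no p below 0.1. The labels call the rats separate animals. Scaling, pseudocounts (none, 64), filters, the choice of probe set, the variance trend, a replicate block and each array left out were tried as alternatives. The fit was tested on simulated arrays.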

Additional observations from a re-analysis of the deposited data

How the results depend on the processing

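Most calls among the members held when a single choice was changed, and the calls lost or gained without 1 rat stand beside the genes. Leaving the signals as deposited had the largest effect: 666 probe sets were higher and 47 lower, 1 member higher and 1 lower, and 0 other amino acid enzymes lower. By construction these arrays keep the shift of 0.41 shared by all probe sets. The medians were then 0.22 over all members, 0.33 branched-chain, 0.0097 aromatic, -0.0073 glycine and serine, 0.15 sulfur, 0.19 lysine and tryptophan, 0.13 glutamine and proline and 0.18 unassigned. Scaled to a common median they were -0.21 over all members, -0.41 glycine and serine, -0.28 sulfur, -0.31 glutamine and proline and -0.26 unassigned, and 2 members rose. Without a variance trend 2 members rose and 10 fell, the calls lost being Bckdhb, Dbt, Ahcy, Aass and Aldh4a1. Without a filter the aromatic median was -0.19 and that of lysine and tryptophan -0.17, since dim genes entered. The glycine and serine median was -0.29 with a pseudocount of 64, -0.31 with the stricter filter and -0.40 with the dimmest probe sets, which gave -0.17 over all members. Averaging the probe sets of each gene gave 1 higher other enzyme. The cause of the other moves was not tested.

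Without 1 rat, 658 to 1439 probe sets were higher and 715 to 1239 lower, 2 to 4 members rose and 9 to 18 fell, and 0 to 1 other enzymes rose and 11 to 19 fell. The medians ran from -0.075 to -0.0013 for branched-chain, -0.37 to -0.29 for glycine and serine, -0.24 to -0.20 for lysine and tryptophan and -0.23 to -0.16 for glutamine and proline. The sign changed without 1 rat in Bckdha (-0.11 to 0.014), Hibch (-0.075 to 0.013), Pcca (-0.019 to 0.11), Pccb (-0.075 to 0.024), Mmut (-0.011 to 0.086), Aldh6a1 (-0.15 to 0.021), Sardh (-0.061 to 0.074) and Mat2a (-0.039 to 0.055), of which Aldh6a1 passed once.

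In the signals as deposited the sign was positive for Bcat2 (0.31), Bckdha (0.36), Bckdk (0.33), Mccc1 (0.22), Mccc2 (0.34), Auh (0.31), Hibch (0.40), Hibadh (0.25), Acad8 (0.27), Pccb (0.33), Aldh6a1 (0.26), Fah (0.22), Gstz1 (0.22), Amt (0.27), Gcsh (0.19), Shmt1 (0.0081), Cbs (0.20), Mat2a (0.29), Ahcy (0.096), Kmo (0.045), Kynu (0.19), Haao (0.27), Gcdh (0.22), Aass (0.082), Glud1 (0.13), Prodh (0.25), Aldh4a1 (0.12) and Agxt2 (0.25), and for Abat (0.070), Ddc (0.037), Prodh2 (0.030), Gnmt (0.030), Acmsd (0.0043), Glul (0.035) and Oat (0.067). Hao2 became -0.33 with a common median and passed as lower (adjusted p = 0.024). Mmut became -0.087 with the mean and -0.14 with the dimmest probe set, and Sardh -0.20 and -0.43.

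The design text of the series speaks of 3 independent experiments, and whether the numbers pair a Dahl S with a Lewis rat is not stated. Deviations of rats of the same number had correlations of -0.05, -0.10 and 0.11, and those of unlike number -0.07 to 0.13. The numbers were not taken as pairs in the main fit, and a block by number was tried as an alternative. With the replicate block 1295 probe sets were higher and 1199 lower, and 3 members rose, Dbt no longer passing (adjusted p = 0.061), and 13 fell.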

Other observations

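Sorted by the compartment in which they are known to work, a grouping written after the differences were seen, the members' counts were as follows, where 7.62% of all genes tested fell and 9.04% rose. Of 14 tested cytosolic members 6 fell (42.9%) and 1 rose (7.14%), with a median of -0.26. Of 29 mitochondrial members 6 fell (20.7%) and 3 rose (10.3%), with a median of -0.09, and of 2 peroxisomal members 1 fell. The difference between compartments was not tested. Compartment and pathway overlap in part. Most branched-chain enzymes are mitochondrial, and of the 17 branched-chain members 1 fell and 3 rose. Other groups mix compartments, as glycine and serine do with mitochondrial Gldc, cytosolic Shmt1 and peroxisomal Dao.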
